A study of Arabidopsis thaliana with 6 samples.

Results

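The 4 probe sets described here report the entry enzymes of general phenylpropanoid metabolism in Arabidopsis root tips: PAL1 (AT2G37040, row ID.263845_at), PAL2 (AT3G53260, row ID.251984_at), C4H (AT2G30490, row ID.267470_at) and 4CL1 (AT1G51680, row ID.256186_at). They were chosen by row identifier, without use of their values, and are 4 of the 22746 probe sets on the array that are not controls. The platform annotation used here does not list these 4 rows, so their gene assignment was taken from the rule that chose them. All 4 loci carry the same symbols in the RefSeq gene table (TAIR10.1).

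General phenylpropanoid metabolism turns phenylalanine into activated hydroxycinnamic acids in consecutive steps. Phenylalanine ammonia-lyase (PAL) removes ammonia from phenylalanine to give cinnamic acid, cinnamate 4-hydroxylase (C4H, a cytochrome P450) adds a hydroxyl group to give p-coumaric acid, and 4-coumarate:CoA ligase (4CL) attaches coenzyme A. The product, p-coumaroyl-CoA, feeds lignin and suberin aromatics, root coumarins, and flavonoids, and several of the genes are known to respond to light in seedlings.

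The study compared 3 samples given 1 h of red light (peak 630 nm, 12 to 14 µmol per square metre and second) with 3 samples kept 1 h longer in darkness, all from 1 cm root tips of seedlings grown for 7 days in the dark on a medium with sucrose. Each sample pooled roots from several plates and went onto 1 Affymetrix array. The labels call the samples biological replicates and name an RNA extraction kit for the dark samples but not for the red light samples; ecotype and genotype are not given in the sources used here. Values are MAS5 signals, the brightness that Affymetrix software computes for a probe set, on a linear scale. A signal belongs to its own probe set, so signals are compared between arrays and not between genes.

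The arrays fell into 2 classes that cross the treatment, by the ratio of signal from the 3' end to signal from the 5' end of the GAPDH control transcript. The ratio was 20.2 to 26.2 in red light 1, dark 1 and dark 3 (the high-ratio class), and 0.981 to 1.45 in red light 2, red light 3 and dark 2 (the low-ratio class). The same ratio was 71.7 to 138 against 13.8 to 20.9 for the actin control, and 6.95 to 8.79 against 1.47 to 1.81 for ubiquitin. The labels name no such grouping, and its cause was not tested. Arrays correlated at 0.92 to 0.97 within a class and at 0.76 to 0.87 between classes (log2 signal of tested probe sets). Changes of the entry enzymes are therefore given by treatment alone, with array class as a second term, and within each class. Of 13 root markers looked for, 3 had a named probe set, all of them root hair genes (EXPA7, EXPA18 and XTH26). Their summed signal was 474.3 to 3172 in red light and 1377 to 3472 in the dark, or 474.3 to 1408 on high-ratio arrays and 2871 to 3472 on low-ratio arrays. Of 8 green tissue markers, LHCB4.1 and RCA were named, with a summed signal of 497.4 to 845.8 in red light and 622.9 to 878.9 in the dark. None of the 6 markers of lignifying xylem, where these enzymes are known to be active, had a named probe set. Fewer cells of a type and less RNA per cell cannot be told apart in such whole root tip samples.

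All 4 entry enzymes gave signals far above the minimum of 88.4 for testing, the lowest single value being 984.5. PAL2 had a lower signal in every red light array than in any dark array, as did 3.93% of tested probe sets, but its change did not pass the test. PAL1, C4H and 4CL1 overlapped between the treatments. PAL1 and PAL2 were brighter in the high-ratio class, and 4CL1 was brighter in the low-ratio class.

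PAL1, the first of the ammonia-lyase genes, had signals of 10709, 8189 and 5821 in red light 1, 2 and 3, against 10612, 4557 and 9172 in dark 1, 2 and 3. The high-ratio arrays were the 3 brightest whatever the treatment, and the groups overlapped. The mean was 8240 ± 2444 in red light and 8114 ± 3163 in the dark (SD, n = 3 each). By treatment alone the log2 change was 0.068 (95% interval -0.89 to 1.03, limma adjusted p = 0.999), which spans folds of 0.538 to 2.04. With array class in the fit it was 0.36 (95% interval -0.11 to 0.82, limma adjusted p = 0.821). An equal level in both treatments was thus not shown, and neither was a difference.

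PAL2, the second ammonia-lyase gene, had signals of 2262, 1143 and 984.5 in red light 1, 2 and 3, against 3628, 2450 and 2951 in dark 1, 2 and 3. All red light arrays lay below all dark arrays, and the red light array nearest to the dark ones was red light 1. The mean was 1463 ± 696 in red light and 3010 ± 591 in the dark (SD, n = 3 each). By treatment alone the log2 change was -1.12 (SE 0.37, 95% interval -1.98 to -0.26, 0.460-fold), with an unadjusted p of 0.0172 and an adjusted p of 0.999 in limma. With array class in the fit it was -0.87 (SE 0.22, 95% interval -1.35 to -0.39, 0.547-fold), with an unadjusted p of 0.00196 and an adjusted p of 0.281. With arrays weighted by their fit, limma called PAL2 (-1.54, adjusted p = 0.0194) together with 16.6% of all tested probe sets. The lowest weights were 0.20 for red light 1 and 0.39 for dark 2, each alone of its class in its treatment. The weighted fit thus set mainly low-ratio red light arrays against high-ratio dark arrays, and treatment and class cannot be told apart well in it. PAL2 ranked 85 of 13647 tested probe sets by p in the first fit and 95 in the second.

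The same tests over all tested probe sets give the background for these values. By treatment alone limma called 0 of 13647 probe sets (0%), and 1.89% had an unadjusted p under 0.05. With array class it called 17 (0.125%), and 6.88% had an unadjusted p under 0.05. Groups that did not overlap, with red light lower, were found for 3.93% of tested probe sets, and PAL2 was the only one of the 4 entry enzymes among them. It follows that within both array classes every red light signal of PAL2 lay below every dark signal, which was so for 14.3% of tested probe sets.

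C4H, the single cinnamate hydroxylase gene of Arabidopsis, had signals of 3253, 7562 and 6976 in red light 1, 2 and 3, against 5338, 4912 and 4434 in dark 1, 2 and 3. The dark arrays lay close together, whereas red light held both the lowest and the 2 highest values. The mean was 5930 ± 2337 in red light and 4895 ± 452 in the dark (SD, n = 3 each). By treatment alone the log2 change was 0.19 (95% interval -0.68 to 1.05, limma adjusted p = 0.999), and with array class it was -0.0082 (95% interval -0.56 to 0.54, limma adjusted p = 0.999).

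4CL1, one of the 4-coumarate ligase genes, had signals of 2623, 7409 and 5268 in red light 1, 2 and 3, against 3609, 5138 and 3377 in dark 1, 2 and 3. Here too red light 1 was the lowest array and red light 2 the highest, and the groups overlapped. The mean was 5100 ± 2397 in red light and 4042 ± 957 in the dark (SD, n = 3 each). By treatment alone the log2 change was 0.24 (95% interval -0.74 to 1.21, limma adjusted p = 0.999), and with array class it was -0.065 (95% interval -0.56 to 0.43, limma adjusted p = 0.983).

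**Figure D1:**
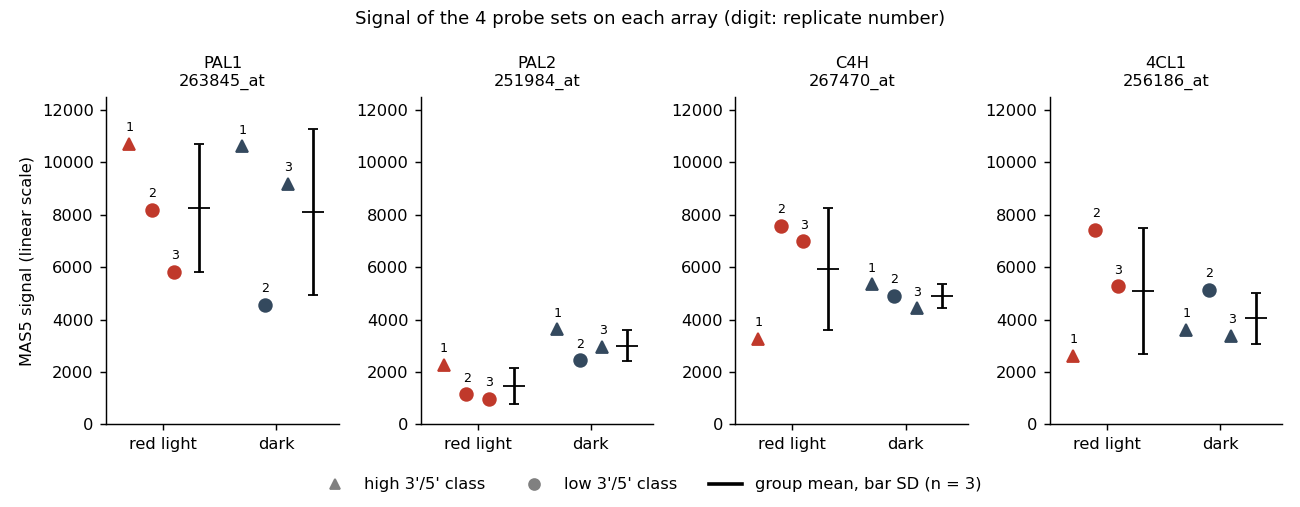
MAS5 signal (linear axis from 0) of PAL1, PAL2, C4H and 4CL1 on each array, red light left of dark, with triangles for the high-ratio and circles for the low-ratio array class and a mean with SD (n = 3) beside each group. The 3 red light signals of PAL2 (984.5 to 2262) lie below its 3 dark signals (2450 to 3628), as for 3.93% of tested probe sets. The groups of the other genes overlap.

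Within the array classes the 4 genes differed in how alike the 2 values were. In the high-ratio class (1 red light and 2 dark arrays) the log2 change was -0.53 for PAL2, 0.12 for PAL1, -0.58 for C4H and -0.41 for 4CL1. In the low-ratio class (2 red light and 1 dark array) it was -1.21 for PAL2, 0.60 for PAL1, 0.56 for C4H and 0.28 for 4CL1. PAL1 and PAL2 thus had the same sign in both classes, and C4H and 4CL1 had opposite signs. For PAL2 the sign in each class follows from its treatments not overlapping over all arrays. How many of all tested probe sets keep their sign was not counted, so the signs do not set these genes apart. For PAL1 the high-ratio value rests on red light 1 at 10709, against dark 1 at 10612 and dark 3 at 9172.

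The change in the high-ratio class minus that in the low-ratio class was tested as an interaction in limma, with 2 residual degrees of freedom. Red light 1 and dark 2 each stand alone in their treatment and class, so the test assumes that they vary like the other arrays, and it cannot be told apart from a deviation of either. The interaction was -1.15 for C4H (SE 0.35, unadjusted p = 0.00608, adjusted p = 0.199). The interaction was -0.69 (SE 0.38) for 4CL1, 0.68 (SE 0.37) for PAL2 and -0.48 (SE 0.38) for PAL1, with adjusted p of 0.548, 0.557 and 0.717 in the same order in limma. None of the 4 was called, and 0.843% of all tested probe sets were.

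**Figure D2:**
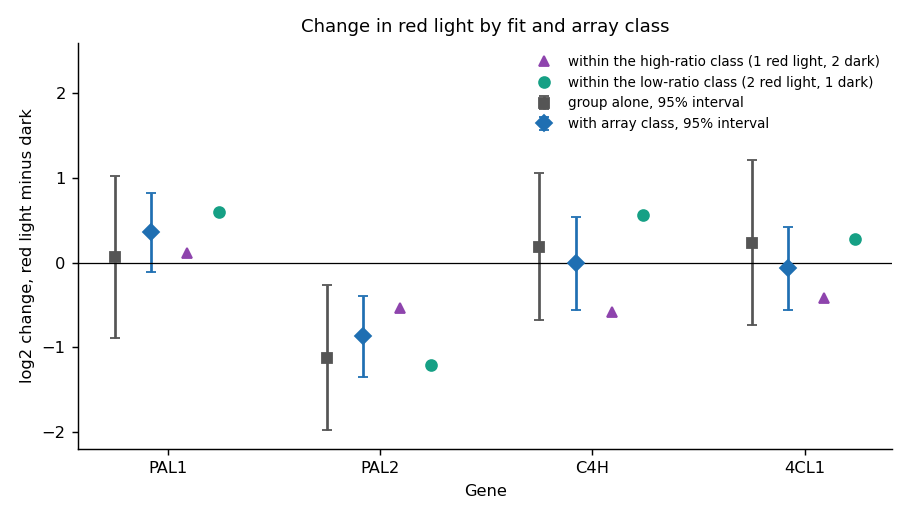
Log2 change in red light minus dark for each gene: squares for the fit by treatment alone and diamonds for the fit with array class (both with 95% intervals), triangles and circles for the change within the high-ratio and low-ratio class. PAL2 lies below 0 in all 4 (-1.12, -0.87, -0.53 and -1.21), and the intervals of the other 3 genes include 0. The 4 signs of PAL2 all follow from its treatments not overlapping and are not separate results.

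The array classes differed in opposite directions for the ammonia-lyase genes and for 4CL1. PAL1 averaged 10164 ± 861 on high-ratio arrays and 6189 ± 1843 on low-ratio arrays (SD, n = 3 each), and the classes did not overlap, as for 51.0% of tested probe sets. Its class difference on the log2 scale, with treatment in the fit, was 0.87 (SE 0.21, limma adjusted p = 0.0086). PAL2 averaged 2947 ± 683 on high-ratio arrays and 1526 ± 804 on low-ratio arrays, a difference of 0.76 (SE 0.22, limma adjusted p = 0.0189), and its classes overlapped. 4CL1 went the other way, with 3203 ± 516 on high-ratio arrays and 5938 ± 1275 on low-ratio arrays, a difference of -0.90 (SE 0.22, limma adjusted p = 0.00946) without overlap. C4H had 4342 ± 1046 and 6483 ± 1392 in the same order, a difference of -0.59 (SE 0.25, limma adjusted p = 0.0885) that was not called.

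The class difference was thus called for 3 of the 4, against 36.8% of all tested probe sets. With a replicate block, at 1 residual degree of freedom, none of the 3 was called (limma adjusted p of 0.282 for PAL1, 0.457 for PAL2 and 0.575 for 4CL1), and the number of probe sets called was 60 in place of 5020. With plain eBayes PAL2 alone of the 3 lost its call (limma adjusted p = 0.0527). Each of these calls was also lost when a single array was left out. PAL2 no longer passed when red light 1, red light 3 or dark 1 was left out (adjusted p of 0.307, 0.0585 and 0.0514 in limma), nor did PAL1 without dark 2 (adjusted p = 0.081 in limma) or 4CL1 without red light 1 (adjusted p = 0.171 in limma). C4H passed without dark 2, with a difference of -1.16 (limma adjusted p = 0.00319). With quantile normalization PAL1 lost its call (0.41, limma adjusted p = 0.169) and C4H gained one (-0.91, limma adjusted p = 0.0153). Which part of each transcript its probes cover is not given in the sources used here, and its part in these differences was not tested.

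Because all genes of an array share its sample, differences between 2 genes on the same array were set against each other as well. The zero of such a difference has no meaning, since it mixes the brightness of 2 probe sets, so only its change between arrays is read. For PAL1 minus PAL2 the log2 difference was 2.24, 2.84 and 2.56 in red light 1, 2 and 3, against 1.55, 0.90 and 1.64 in dark 1, 2 and 3. The groups did not overlap, and the signal of PAL1 relative to PAL2 was 2.28 times as high in red light (log2 difference 1.19). The exact 2-sided permutation p was 0.10, the smallest that 3 against 3 arrays can give, and 0.60 after adjustment over the 6 pairs of genes. Within the classes this difference between treatments was 0.65 (high ratio) and 1.81 (low ratio). By treatment alone PAL1 changed by 0.068 and PAL2 by -1.12, so the pair largely restates the values of PAL2. How many pairs of all tested probe sets do not overlap was not counted.

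PAL2 was also set against the later steps. PAL2 minus C4H averaged -2.03 ± 1.30 in red light and -0.72 ± 0.25 in the dark (SD, n = 3 each, exact permutation p = 0.40, adjusted p = 0.80). The treatments differed by 0.048 on high-ratio arrays and by -1.77 on low-ratio arrays. PAL2 minus 4CL1 averaged -1.78 ± 1.36 in red light and -0.42 ± 0.57 in the dark (exact permutation p = 0.20, adjusted p = 0.60), with -0.12 on high-ratio and -1.49 on low-ratio arrays.

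Among the 4 genes, C4H and 4CL1, the successive steps after the ammonia-lyase, moved most alike (Pearson r = 0.90 over the 6 arrays). This likeness did not stand out: of 7331 tested probe sets with 1 named gene, 26 had r above 0.95 with C4H and 146 with 4CL1. The difference between C4H and 4CL1 stayed within a span of 0.63 on the log2 scale over all 6 arrays, against spans of 1.95 to 2.70 for the other 5 pairs. It averaged 0.25 ± 0.20 in red light and 0.30 ± 0.33 in the dark (SD, n = 3 each, exact permutation p = 0.90, adjusted p = 1). PAL1 minus C4H and PAL1 minus 4CL1 changed by -0.12 and -0.17 between treatments (exact permutation p = 0.90 and 1) and differed more by class, by 1.34 and 1.64.

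**Figure D3:**
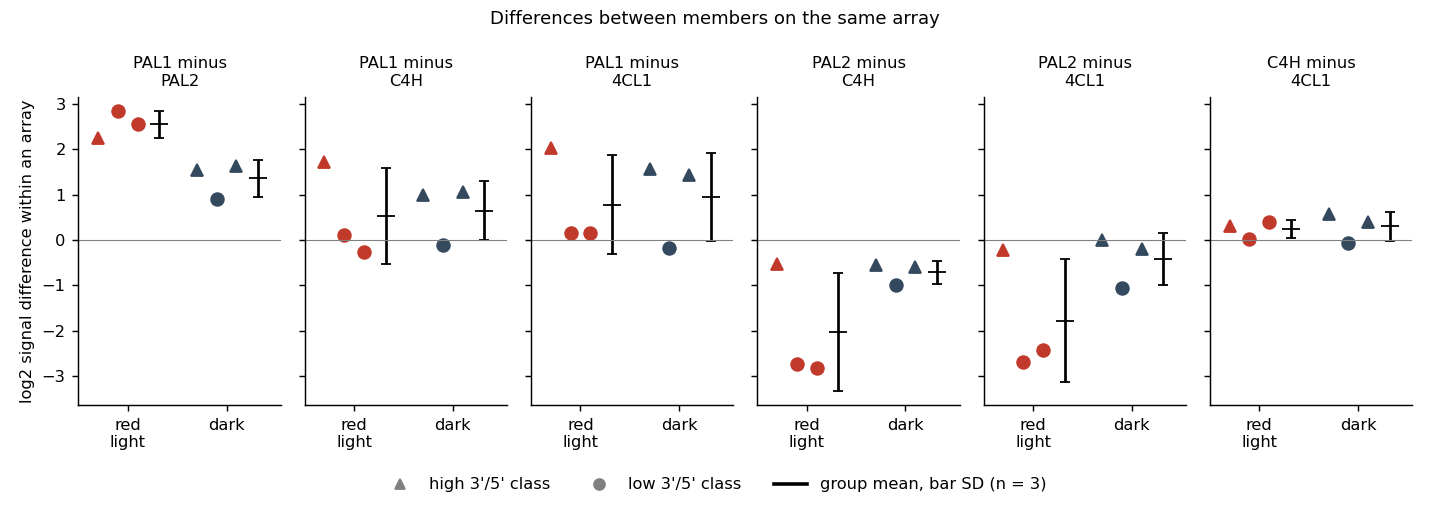
Log2 difference in signal between 2 of the genes on the same array, for the 6 pairs, red light left of dark, with triangles for the high-ratio and circles for the low-ratio class and a mean with SD (n = 3) beside each group. PAL1 minus PAL2 is the only pair whose red light arrays (2.24 to 2.84) all lie apart from its dark arrays (0.90 to 1.64), and C4H minus 4CL1 has the narrowest span.

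The other genes of the pathway could be followed only in part. Of 78 listed genes that supply, use or regulate the pathway, 14 had a named probe set and 9 of these were bright enough to be tested. Of the 9, 0 were called in limma by treatment alone and 0 with array class, beside the 0% and 0.125% of all tested probe sets. By treatment alone 4 of the 9 had a change above 0 and 5 below 0, with a median of -0.016 beside -0.015 for all tested probe sets. The class difference was called for 2 of the 9 (HCT and F6'H1), beside 36.8% of all tested probe sets. PRX52, among those below 0, passed the minimum only through its signals in dark 1 and dark 3. The 5 that stayed below the minimum, CCR2, S8H (AT3G12900), DFR, BAN and UGT78D1, had single signals of 3.5 to 194.3. The other PAL and 4CL genes (5 listed), the P450 reductases that pass electrons to C4H (2 listed) and the regulators (16 listed) had no named probe set.

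Upstream, 2 of 19 listed genes of phenylalanine supply by the shikimate pathway were tested. AT1G22410, listed as the 3-deoxy-7-phosphoheptulonate synthase gene DHS3, averaged 6086 ± 1246 in red light and 7480 ± 1845 in the dark, a log2 change of -0.29 (SE 0.31). AT5G66120, listed as the dehydroquinate synthase gene DQS, averaged 1473 ± 90.5 in red light and 1493 ± 157 in the dark, a change of -0.016 (SE 0.24). Neither differed by class beyond its error (0.11 and 0.0065, SE 0.24 and 0.19).

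Downstream, on the branch to lignin and hydroxycinnamate esters, HCT (hydroxycinnamoyl transferase, which uses p-coumaroyl-CoA) had signals of 2169, 6393 and 4623 in red light 1, 2 and 3, against 3002, 4423 and 4299 in dark 1, 2 and 3. Its change was 0.056 (SE 0.43) by treatment alone and -0.22 (SE 0.27) with array class, and -0.73 within the high-ratio and 0.30 within the low-ratio class. Like 4CL1 it was lower in the high-ratio class, by a log2 difference of -0.81 (SE 0.27, limma adjusted p = 0.0348). ALDH2C4, an aldehyde dehydrogenase that makes ferulic and sinapic acid, had a change of 0.064 (SE 0.31), or -0.047 (SE 0.23) with array class. The peroxidase genes PRX72 (AT5G66390) and PRX52, of families that oxidise lignin precursors, had changes of 0.086 (SE 0.40) and -0.30 (SE 0.38) by treatment alone, and of -0.13 (SE 0.29) and -0.24 (SE 0.43) with array class. Within the high-ratio and low-ratio classes PRX72 had changes of -0.83 and 0.58.

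On the root coumarin branch, F6'H1 (AT3G13610, feruloyl-CoA 6'-hydroxylase) had signals of 908.4, 3397 and 2107 in red light 1, 2 and 3, against 2233, 2818 and 1602 in dark 1, 2 and 3. The lowest array was again red light 1 and the highest red light 2. Its change was -0.21 (SE 0.49), or -0.57 (SE 0.28) with array class, and it differed by class by -1.07 (SE 0.28, limma adjusted p = 0.013). AT1G28680, listed as the coumarin synthase gene COSY, had a change of -0.14 (SE 0.24).

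Among 10 flavonoid genes only the glucosyltransferase gene UGT78D2 was tested. Its signals of 250.2 to 268.7 in red light and 89.6 to 126.8 in the dark did not overlap. Red light was higher without overlap for 2.23% of tested probe sets. With array class its change was 1.33 (SE 0.30, limma adjusted p = 0.215), so it was not called either.

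**Figure D4:**
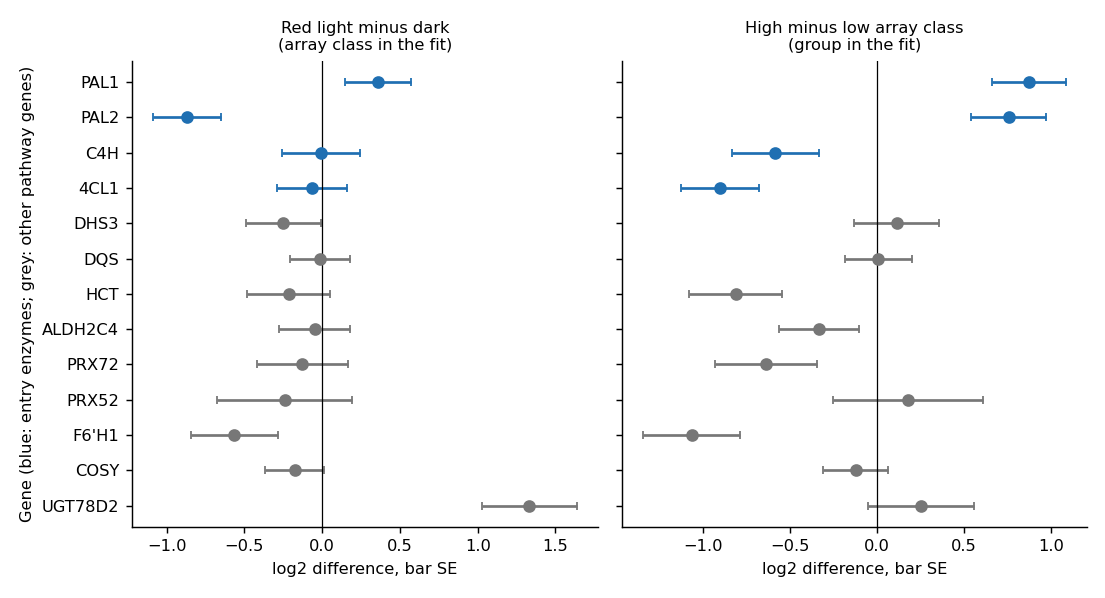
Log2 differences with SE of the 4 entry enzymes (blue) and the 9 other tested pathway genes (grey, by their listed names), for red light minus dark with array class in the fit (left) and high-ratio minus low-ratio class with treatment in the fit (right). PAL2 (-0.87) and UGT78D2 (1.33) lie farthest from 0 on the left, and PAL1, PAL2, 4CL1, HCT and F6'H1 are the genes called on the right. The class difference was called for 36.8% of all tested probe sets.

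Patterns like those of the entry enzymes were looked for among the 7331 tested probe sets with 1 named gene, by Pearson r of log2 signal over the 6 arrays, which share array class. The measure is a description, and 23, 40, 26 and 146 of these probe sets had r above 0.95 with PAL1, PAL2, C4H and 4CL1 in that order. Nearest to PAL1 were AT2G35900 (r = 0.992), AT1G73760 (r = 0.986) and AT5G02640 (r = 0.986). Nearest to PAL2 were AKINBETA1 (r = 0.996), which encodes a beta subunit of the SnRK1 energy-sensing kinase, AT3G62790 (r = 0.991) and AT5G02580 (r = 0.990).

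The highest values of r with C4H were those of AT4G03100 (r = 0.997), AT5G64090 (r = 0.993) and the RNA-binding protein gene AtRZ-1b (r = 0.993). Those with 4CL1 were of AT1G62422, BUG22 and AT3G11630 (r = 0.995, 0.995 and 0.991). After the mean of each array class was subtracted, r was 0.961 to 0.997 for these 12 genes. They had been picked by r on the same arrays, so this is not a separate check. Among themselves, C4H and 4CL1 had r = 0.90 over the 6 arrays (0.82 after subtraction of class means), and PAL1 and PAL2 had r = 0.39 (-0.63 after subtraction). For the mean of the 4 standardised profiles, the nearest genes were AT4G08790 (r = 0.972), AT4G02180 (r = 0.964), AT5G09760 (r = 0.933), AT3G51130 (r = 0.929) and AT4G01740 (r = 0.929).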

How the data were processed

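Per the submitters' processing notes, the authors deposited MAS5 intensity values on a linear scale; the MAS5 version and detection calls are not given in the sources used here. Trimming 2% from each end left array means of 498.9 to 499.6. Of 22810 probe sets, 64 controls were left out of the tests. The log2 of each value was used with nothing added. A probe set was tested if its mean log2 exceeded the 40th percentile of all (signal 88.4), as 13647 did. The test was limma 3.58.1 in R 4.3.3, with a moderated variance that follows signal and is robust to outliers (statmod 1.5.0). Benjamini-Hochberg adjustment ran over all tested probe sets, with a threshold of 0.05. Treatment was the only term of the first fit. Array class (GAPDH 3'/5' ratio above 5 or not) was a term of the second. Both were run on simulated data with independent normal errors, with and without a class effect of the form used in the second fit. Such data hold no deviating array, so the run does not show how the fits handle one. With 3 arrays per group, precision is limited by their number.

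Names came from the platform annotation (1 gene for 13513 probe sets, several for 503, 8730 not listed), updated through RefSeq. The members were chosen by row identifier and not by their values, although earlier results of these data were known. The pathway lists, array class and tests were also chosen with those results known. From each list the 2 tested genes with the largest moderated t were named, plus any called, and the 3 nearest named genes per member and 5 for the mean profile. Alternatives covered scaling, a pseudocount of 16, filters, moderation, array weights, the GAPDH ratio as a covariate, a replicate block and leaving out each array.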

Additional observations from a re-analysis of the deposited data

How the results depend on the processing

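Over 27 alternatives PAL2 kept a change below 0 in red light, and limma called it in 1 of them, array weights (-1.54, adjusted p = 0.0194; adjusted p up to 1 in the others). Where 1 array was left out, this sign of PAL2 was fixed in advance, since its treatments did not overlap over all arrays or within either class. The same holds for array weights, the pseudocount and array class as a term. Filters, plain eBayes and the replicate block alone leave the estimate unchanged, so the 27 alternatives are not separate checks of the sign. Array weights called 2261 probe sets (1311 higher, 950 lower), with weights of 0.20 for red light 1 and 0.39 for dark 2. That fit, in which treatment and class cannot be told apart well, turned PAL1 to -0.42 and F6'H1 to 0.32. UGT78D2 was called there too (1.11). C4H, 4CL1, HCT, ALDH2C4 and PRX72 were at -0.0082, -0.065, -0.22, -0.047 and -0.13 with array class (17 probe sets called, 11 higher and 6 lower) and at -0.048, -0.13, -0.28, -0.074 and -0.18 with the GAPDH ratio as a covariate (22 called). DQS was at 0.023 with median centring. Added after the data were seen, array class together with quantile normalization called 20 probe sets (4CL1 -0.081), with the pseudocount of 16 it called 21 (C4H -0.0078, 4CL1 -0.065), with plain eBayes 5 and without a filter 19 (C4H -0.0082 and 4CL1 -0.065 in both). The median change of all tested probe sets was -0.015, or -0.024 with quantile normalization and 0.024 with median centring. The cause of these shifts was not tested.

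Leaving out 1 array, with treatment alone or with array class, gave changes of -0.30 to 0.60 for PAL1, -1.49 to -0.53 for PAL2, -0.58 to 0.57 for C4H and -0.41 to 0.65 for 4CL1. The ranges were -0.75 to 0.25 for DHS3, -0.080 to 0.066 for DQS, -0.73 to 0.50 for HCT, -0.40 to 0.31 for ALDH2C4, -0.83 to 0.58 for PRX72, -0.59 to 0.11 for PRX52, -1.06 to 0.31 for F6'H1 and -0.34 to -0.019 for COSY. By treatment alone PAL1 was below 0 without red light 1 or without dark 2 (-0.14 and -0.30), and with array class it was 0.60 and 0.12. The values with array class are its changes within the low-ratio and the high-ratio class, given above, and not a separate check. Without red light 1 or dark 2 only that class holds both treatments, and the same is true of every gene. The number of probe sets called lay between 0 and 288, with 15 without red light 1, and with array class 288 without dark 2 and 6 without red light 2. For array class itself it was 2412 to 5259, with 2412 without red light 1. The class differences were 0.63 to 1.11 for PAL1, 0.42 to 1.09 for PAL2, -1.16 to -0.014 for C4H and -1.25 to -0.56 for 4CL1. With quantile normalization the class difference was 0.41 for PAL1 and -0.91 for C4H, and with plain eBayes the call of PAL2 was lost (0.76, limma adjusted p = 0.0527).

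Of the differences between genes, PAL1 minus PAL2 ran from 0.96 to 1.34 without any 1 array. Its sign was fixed in advance there, since its treatments did not overlap. PAL1 minus C4H ran from -0.72 to 0.27, PAL1 minus 4CL1 from -0.80 to 0.15 and C4H minus 4CL1 from -0.23 to 0.084. Within the high-ratio class PAL1 minus C4H was 0.70, PAL1 minus 4CL1 0.53 and PAL2 minus C4H 0.048. Within the low-ratio class PAL1 minus C4H was 0.035, PAL1 minus 4CL1 0.32 and C4H minus 4CL1 0.28.

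The replicate numbers were not taken to pair the arrays: deviations of arrays with numbers 1, 2 and 3 correlated at 0.58, 0.64 and -0.32, and arrays of unlike number correlated at 0.59 (red light 3 with dark 2) and 0.41 (red light 1 with dark 3). All 9 correlations between a red light and a dark array were above 0 within an array class and below 0 across classes. A replicate block alone cannot change the estimate in this balanced design, so PAL2 stayed at -1.12, and 0 probe sets were called by treatment. With array class and a replicate block 17 were called (C4H -0.046). The class differences with a replicate block, at 1 residual degree of freedom, were 1.09 for PAL1, 0.69 for PAL2 and -0.61 for 4CL1, none called in limma, and 60 probe sets were called.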
